A study of Homo sapiens with 6 samples.

Results

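ISG15 is a small ubiquitin-like protein that is joined to other proteins in cells answering interferon, and the 10 genes described here encode ISG15, the enzymes that attach and remove it, and interferon-induced ubiquitin ligases with one partner. They were chosen by name, with their difference between SQLE-silenced and control cells already known from the same counts, so the differences of these 10 genes are given as a description without a test. They are ISG15, USP18, HERC5, HERC6, UBE2L6, UBA7, TRIM21, TRIM22, DTX3L and PARP9, 10 of the 19937 genes in the table. Of these, 9 passed the filter on low counts, as did 12450 genes in all, and TRIM22 did not.

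The data were 6 poly(A) RNA-seq libraries of U2OS, an established human osteosarcoma cell line. The 3 shSQLE libraries came from cells with a short hairpin RNA against SQLE, the gene of squalene epoxidase in cholesterol synthesis, and the 3 shControl libraries from cells with a scrambled hairpin. Both hairpins were carried by the pGIPZ plasmid and delivered by lentivirus, and both groups had been selected with puromycin, so integrated vector and drug selection were shared. The study asked which transcripts differ once SQLE is silenced. Each group is a stably infected population of a single cell line, which hairpin was sequenced is not given in the sources used here, and no source used here says that replicate libraries were grown as separate cultures. Spread between libraries, and every p-value resting on it, may therefore be technical. In bulk RNA, fewer cells expressing a gene and less RNA per cell cannot be told apart.

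ISG15 is attached in a relay like that of ubiquitin. UBA7 activates it, UBE2L6 carries it and HERC5 is the main human ligase that places it on targets, while USP18 removes it and also restrains signalling from the type I interferon receptor. HERC6 is the close relative of HERC5, TRIM21 is a ligase that also binds antibodies inside cells, TRIM22 is an antiviral ligase, and DTX3L works as a complex with PARP9, an ADP-ribosyltransferase family member. Interferon raises such genes largely through a transcription factor complex that includes STAT2 and IRF9 and binds the interferon-stimulated response element in promoters.

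Promoter sequences were searched for exact matches to a short pattern for that element close to the start sites of members. RefSeq promoter windows on GRCh38.p14, from 250 bases before the start to 50 after it, were held for 7 of the 10 members in 9 windows; those of USP18, UBA7 and TRIM22 are not shown. The element was searched on both strands as GAAANNGAAA, and neighbouring matches may overlap. It was found in 5 of the 9 windows, belonging to 5 members, against 1255 of all 35116 windows in the table (3.57%). The stretches below are those in which ISG15, HERC5, DTX3L and TRIM21 hold their matches, written 5′ to 3′ along the gene's strand with the matched bases in capitals. ISG15 is shown at chr1:1013367-1013496 (+), HERC5 at chr4:88456989-88457118 (+), DTX3L at chr3:122564316-122564341 (+) and TRIM21 at chr11:4393670-4393685 (-).
ISG15: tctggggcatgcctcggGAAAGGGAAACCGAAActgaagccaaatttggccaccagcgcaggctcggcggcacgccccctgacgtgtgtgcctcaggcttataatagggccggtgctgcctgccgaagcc
HERC5: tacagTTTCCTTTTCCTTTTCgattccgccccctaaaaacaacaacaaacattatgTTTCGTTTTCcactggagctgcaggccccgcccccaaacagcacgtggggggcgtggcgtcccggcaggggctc
DTX3L: ggacctccagggaagcGAAACTGAAA
TRIM21: GAAACTGAAAGTGAAA

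ISG15 held 2 overlapping matches, from -113 to -104 and from -107 to -98 bases relative to the start. HERC5 held 3 on the reverse strand, an overlapping pair from -125 to -116 and -119 to -110, and a separate one from -74 to -65. TRIM21 held 2 overlapping matches downstream of its start, from 18 to 27 and from 24 to 33. The DTX3L match ran across the start itself, from -6 to 4, and is the same stretch of DNA, bases 122564332 to 122564341 of chromosome 3, that lies from -41 to -32 of a PARP9 start. From that PARP9 start the 2 genes point away from each other, with 37 bases between the start sites at 122564338 and 122564300. The other PARP9 start, at 122564784, lies past the DTX3L start, so from it the 2 genes overlap. No match was found in the HERC6 window, in either UBE2L6 window or in the other PARP9 window. The gamma-activated site, searched as TTCNNNGAA, was found in 0 of the 9 member windows and in 7.66% of all windows. A match is only a run of letters, and binding was not measured here. An element written differently, or lying outside the windows, would not be found, so no match does not show that the element is absent.

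**Figure D1:**
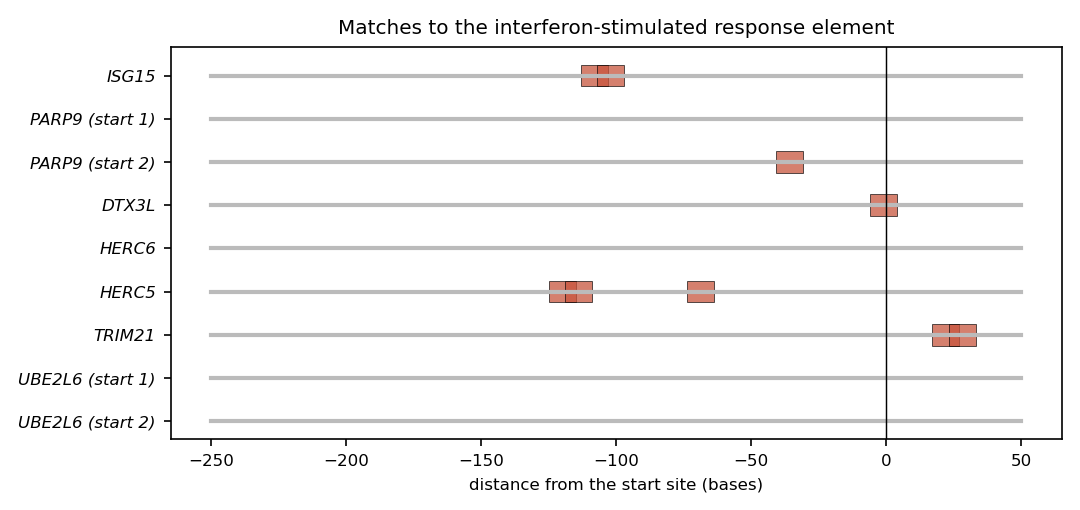
Positions of GAAANNGAAA matches on either strand (boxes) in the 9 RefSeq promoter windows (grey lines) of 7 members, in bases from the start site at 0. ISG15 and HERC5 hold theirs more than 60 bases before the start, DTX3L across it and TRIM21 after it, while HERC6 and UBE2L6 hold none.

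Totals ranged from 12212378 to 14393292 counts per library. SQLE had raw counts of 1168, 2065 and 1961 in the shControl libraries (in replicate order here and throughout) and of 234, 207 and 213 in shSQLE, a log2 fold change of -2.98 (SE 0.17), in the direction of the labels. Over all genes tested, 354 (2.84%) were called lower in shSQLE and 46 (0.369%) higher by edgeR's quasi-likelihood test at a Benjamini-Hochberg adjusted p of 0.05. In 1505 genes (12.1%) the highest shSQLE value was under the lowest shControl value. shControl replicate 1 stood apart: its counts differed from those of replicates 2 and 3 by a chi-square of 51.3 and 60.8 per degree of freedom (a value near 1 is sampling noise), against 2.76 between replicates 2 and 3 and 3.31 to 15.2 within shSQLE. Against the mean of replicates 2 and 3, its median log2 difference was 0.68 for 641 genes with a transcript under 1000 nt and -0.37 for 5107 genes of 4000 nt and over. Results that rest on it are therefore given with and without it. With it left out, 2300 of the 12570 genes tested were called lower and 1964 higher. Counts of calls in that fit stand against this larger background. U2OS cells are osteosarcoma cells, and 5 of 8 osteoblast lineage genes exceeded 3 counts in some library. RUNX2 had raw counts of 149, 245 and 232 in shControl and 185, 146 and 178 in shSQLE. COL1A1 had 147, 184 and 160 and then 103, 105 and 106, and SPP1 60, 96 and 100 and then 86, 96 and 109. SP7 and IBSP had 0 counts in every library and ALPL at most 2. Of the blood cell markers, PTPRC was at 0, while ITGAX had 73, 80 and 106 in shControl and 42, 52 and 58 in shSQLE.

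ISG15 was the highest member and, with HERC6, showed the lowest shSQLE levels relative to control. All 9 members tested had a negative log2 fold change, 4 of them (HERC6, HERC5, ISG15 and PARP9) passed the adjusted p beside a background of 2.84% called lower, and 0 were called higher beside 0.369%. The groups did not overlap in 7 of the 9, beside 12.1% of all genes tested. The median log2 fold change of the 9 was -0.84, and that of all genes tested was -0.01, with 51.6% negative. Since the same contrast chose the members, nothing is read from these counts.

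ISG15 (ENSG00000187608, chromosome 1, 1001138 to 1014540, + strand of hg38) encodes the modifier itself. Its normalized counts, that is counts at a common library size, were 2091, 969 and 875 in shControl and 390, 392 and 219 in shSQLE. The groups did not overlap, and shControl replicate 1 held more than the other two controls together. The means were 1312 ± 677 and 334 ± 99.4 (SD, n = 3 each), which puts shSQLE at 25.4% of control, with a log2 fold change of -1.97 (SE 0.38). ISG15 has a transcript of 637 nt, and in shControl replicate 1 it stood 1.18 above the other controls on the log2 scale, in the direction of short transcripts in that library. The part of that library's length trend in the ISG15 difference was not tested by itself, but without the library the log2 fold change was -1.46 and the call held. Removal of trends on GC content and length as offsets gave -1.89. The call was lost when shSQLE replicate 1, 2 or 3 or shControl replicate 2 was left out, at -2.10, -2.10, -1.73 and -2.15.

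UBA7, the activating enzyme, was barely measured. Its raw counts were 9, 18 and 18 in shControl and 14, 7 and 4 in shSQLE, so the groups overlapped, and its log2 fold change was -0.84 (SE 0.46). It lies on chromosome 3 from 49805209 to 49813953 (- strand). UBE2L6, the conjugating enzyme on chromosome 11 from 57551656 to 57568284 (- strand), had normalized counts of 189, 127 and 93.2 in shControl and 85.2, 72.9 and 82.2 in shSQLE. The groups did not overlap, but the lowest control was close to the highest shSQLE library. Its log2 fold change of -0.76 (SE 0.26) was not called, and without shControl replicate 1, in which it stood 0.79 above the other controls, it was -0.46. Its transcript has 1219 nt. The log2 ratio of UBE2L6 to UBA7 was 3.18 ± 0.91 in shControl and 3.45 ± 0.84 in shSQLE (SD, n = 3 each), a difference smaller than the spread.

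HERC5 and HERC6, the ligases, stood far apart between the groups relative to the spread of their libraries. HERC5 (chromosome 4, 88457119 to 88506163, + strand) had normalized counts of 1125, 1155 and 1244 in shControl and 471, 395 and 463 in shSQLE. The shSQLE level was 37.7% of control, with a log2 fold change of -1.41 (SE 0.12). HERC6 (chromosome 4, 88378739 to 88443097, + strand), which ends 14021 bases before HERC5 starts, had 455, 476 and 470 in shControl and 118, 115 and 120 in shSQLE. Its shSQLE level was 25.2% of control, with a log2 fold change of -1.99 (SE 0.12). Both were called in all 6 fits that left out 1 library and in all 7 other alternatives, with log2 fold changes from -1.45 to -1.33 for HERC5 and from -2.03 to -1.94 for HERC6. In shControl replicate 1 they stood at -0.09 and -0.06 against the other controls, so neither moved with that library.

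The neighbours HERC6 and HERC5 did not keep one ratio. HERC6 held 0.405, 0.412 and 0.378 of the HERC5 normalized count in the shControl libraries and 0.249, 0.292 and 0.26 in shSQLE. On the log2 scale the ratio was -1.33 ± 0.07 in shControl and -1.91 ± 0.12 in shSQLE (SD, n = 3 each), and the ranges did not overlap.

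USP18, which takes ISG15 off its targets, differed little from control while ISG15 itself was lower. Its normalized counts were 35.8, 49.7 and 21.6 in shControl and 29.4, 35.5 and 26.7 in shSQLE, so the groups overlapped. The log2 fold change was -0.23 (SE 0.32), and without shControl replicate 2 it turned to 0.10. The log2 ratio of USP18 to ISG15 was -5.16 ± 0.81 in shControl and -3.41 ± 0.35 in shSQLE, with no overlap between the libraries. USP18 lies on chromosome 22 from 18150118 to 18177397 (+ strand) and has a near-identical copy, USP41, whose raw counts were 5, 0 and 0 in shControl and 4, 0 and 0 in shSQLE. How reads shared by such copies were counted is not given in the sources used here, so the USP18 level is less certain than the others.

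**Figure D2:**
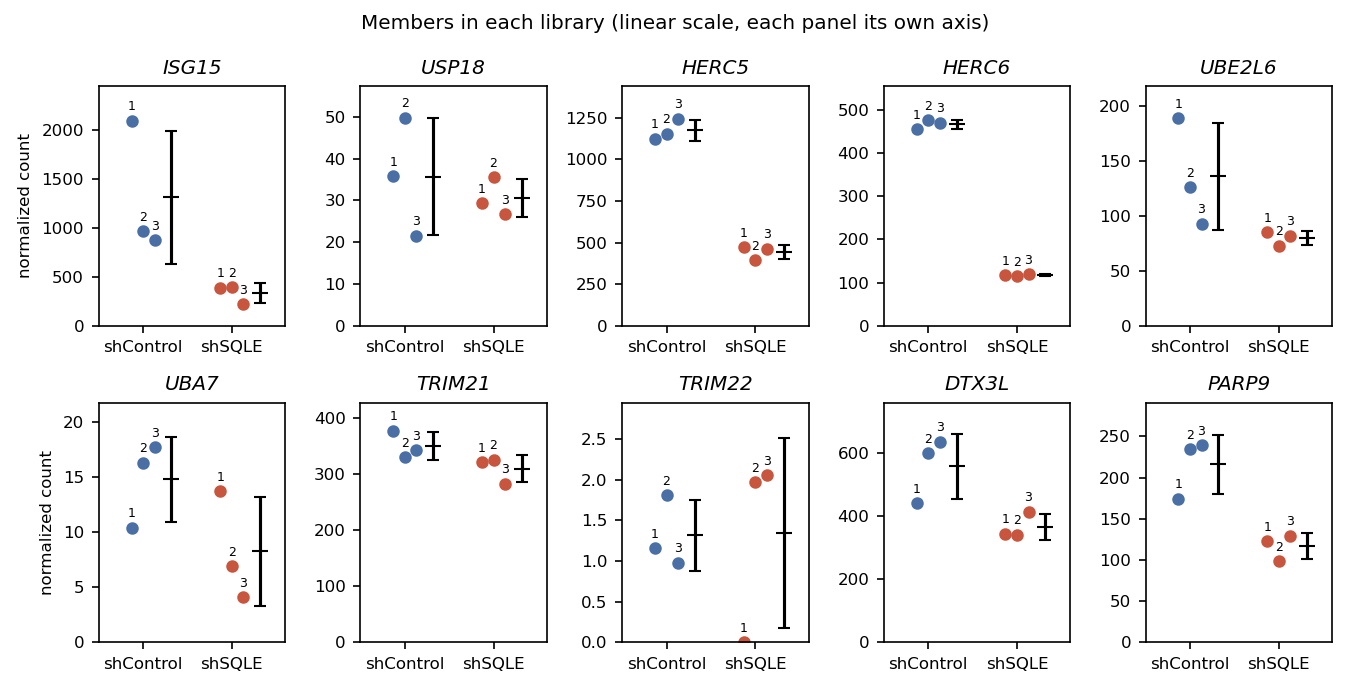
Normalized counts (linear axes from 0, one scale per panel) of the 10 members in the 3 shControl (blue) and 3 shSQLE (red) libraries, numbered by replicate, with mean and SD as black bars. HERC5 and HERC6 show widely separate groups, ISG15 a single high control library, and USP18, UBA7 and TRIM22 overlapping groups.

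Of the TRIM ligases, TRIM21 was well expressed and TRIM22 close to 0. TRIM21 (chromosome 11, 4384897 to 4393702, - strand) had normalized counts of 376, 329 and 342 in shControl and 320, 325 and 283 in shSQLE. The highest shSQLE library was just under the lowest control, and the log2 fold change of -0.17 (SE 0.13) was not called in any alternative. TRIM22 (chromosome 11, 5689610 to 5737089, + strand) had raw counts of 1, 2 and 1 in shControl and 0, 2 and 2 in shSQLE. No fold is given for it, since both groups lay under the floor of 3 counts per library. It shares 642 exon bases with OR56B1 on the same strand, so even these few counts are uncertain.

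DTX3L and PARP9, which form a complex and share one promoter region, were both lower in every shSQLE library than in any control. DTX3L (chromosome 3, 122564338 to 122575203, + strand), the ligase, had normalized counts of 441, 599 and 635 in shControl and 344, 341 and 414 in shSQLE. The log2 fold change was -0.61 (SE 0.17). PARP9 (chromosome 3, 122527924 to 122564577, - strand) had 174, 234 and 239 in shControl and 122, 98.6 and 130 in shSQLE. Its log2 fold change was -0.89 (SE 0.18), at 54.1% of control. In both genes shControl replicate 1 was the lowest control, at -0.48 and -0.44 against the others, which brought the groups closer. Without that library the log2 fold changes were -0.75 and -1.02 and both were called. With all 6 libraries edgeR did not call DTX3L, while DESeq2 called it at -0.60 and edgeR with GC content and length offsets at -0.50. PARP9 was called, but it lost its call when any other single library was left out, with log2 fold changes from -0.95 to -0.78.

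The log2 ratio of PARP9 to DTX3L was -1.37 ± 0.04 in shControl and -1.65 ± 0.15 in shSQLE. PARP9 held 0.395, 0.391 and 0.377 of the DTX3L normalized count in shControl and 0.356, 0.289 and 0.313 in shSQLE, again without overlap. The genes share 139 exon bases on opposite strands, and whether the counting used the strand is not given in the sources used here, so reads from that stretch may have been assigned to either gene or to none.

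**Figure D3:**
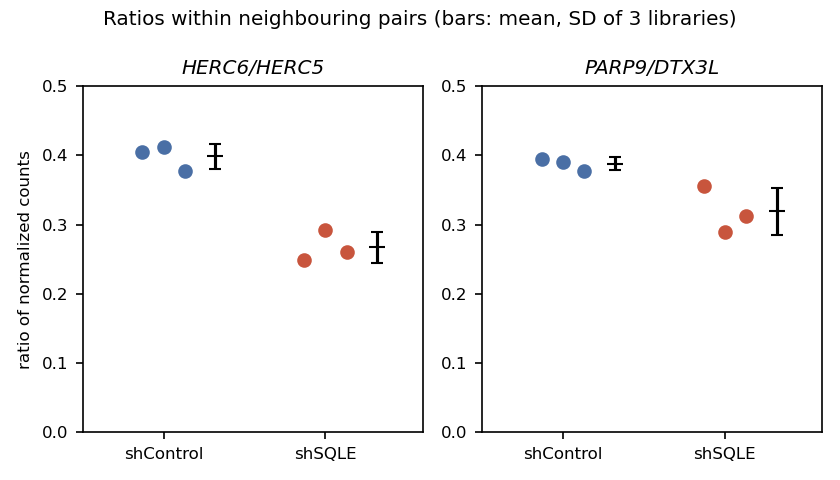
Ratio of normalized counts within each library (points) for HERC6 over HERC5 and for PARP9 over DTX3L, with mean and SD of 3 libraries as bars. Both ratios are lower in every shSQLE library (0.249 to 0.292 and 0.289 to 0.356) than in any shControl library (0.378 to 0.412 and 0.377 to 0.395).

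Compared per length of the canonical transcript, the members spanned a wide range of levels. In shControl, in counts per kb per 1e6 counts (mean ± SD, n = 3), ISG15 stood at 153 ± 78.8, HERC5 at 24.8 ± 1.31 and TRIM21 at 13.4 ± 0.94. HERC6 followed below TRIM21 at 9.17 ± 0.21, and it did not differ beyond the spread from UBE2L6 at 8.30 ± 2.97. Nor did UBE2L6 differ so from DTX3L at 7.18 ± 1.32, or DTX3L from PARP9 at 5.26 ± 0.88. USP18 followed at 1.43 ± 0.56, UBA7 at 0.332 ± 0.087 and TRIM22 at 0.0338 ± 0.011. RNA of the carrier UBE2L6 and of the ligase HERC5 thus stood far above that of the activating enzyme UBA7. Protein was not measured here. In shSQLE, ISG15 was still highest at 38.8 ± 11.6, but TRIM21 at 11.9 ± 0.89 was above HERC5 at 9.36 ± 0.88, and HERC6 at 2.31 ± 0.05 was below PARP9 at 2.85 ± 0.40. UBE2L6 at 4.87 ± 0.39 and DTX3L at 4.71 ± 0.53 did not differ beyond their spread.

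**Figure D4:**
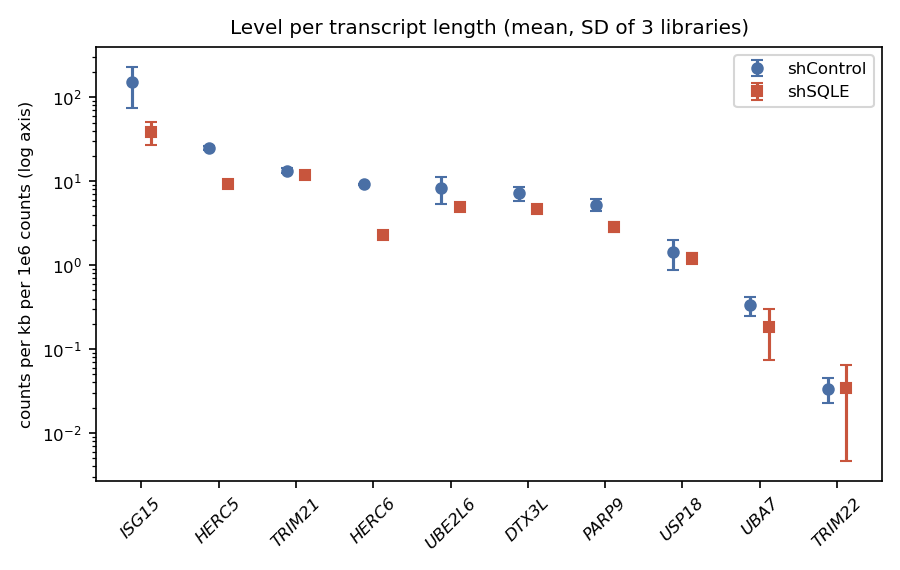
Level of the 10 members in counts per kb of canonical transcript per 1e6 counts (log axis), mean and SD of 3 libraries, for shControl (blue circles) and shSQLE (red squares), ordered by the shControl mean. ISG15 is highest in both groups, and HERC5 and TRIM21 change places between them.

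Over the 6 libraries, the genes whose log2 CPM was most like that of ISG15 were COL18A1, a basement membrane collagen, with a Pearson r of 0.9968, the microtubule-binding gene CLIP2 (0.9952), PFKFB4, a regulator of glycolysis (0.9946), G0S2, an inhibitor of lipolysis (0.9942), and the cytokine gene CSF2 (0.9941). The points share the difference between groups and the high shControl replicate 1, and COL18A1 had normalized counts of 1054, 780 and 795 in shControl and 556, 549 and 460 in shSQLE. Among the members, HERC5 and HERC6 had an r of 0.994, DTX3L and PARP9 0.964, and ISG15 and USP18 0.326.

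Genes around the members were tested in the same fit, from lists that were also drawn up with earlier results known. Beyond the members, the ISG15 system (enzymes that can also remove ISG15, other carriers and ligases, substrates and the subunits of the receptor LFA-1) had 14 of 15 genes tested, of which 1 was called lower and 0 higher, with a median log2 fold change of 0.06. The called gene was ITGB2, a subunit of the integrin LFA-1 to which extracellular ISG15 binds, at -1.07 (SE 0.21), with raw counts of 49, 59 and 63 in shControl and 33, 25 and 24 in shSQLE. ITGAL, the other LFA-1 subunit and the list gene not tested, had 0 counts in every library, so RNA was seen for ITGB2 but not for ITGAL. An unadjusted p under 0.05 was reached by 6 of the 14. The share of all genes at that p is not given here, so nothing is read from such counts in any list. DESeq2 called ITGB2 lower and SKP2, at 0.57, higher, beside 568 lower and 162 higher of 12450 genes in all. Without shControl replicate 1, edgeR called 4 of the 14 lower (ITGB2, TRIM25, USP16 and ARIH1) and 4 higher (SKP2, USP2, USP5 and UBE2N). In that fit 2300 of all 12570 genes tested were called lower and 1964 higher. With GC content and length offsets, 2 of the 14 were called lower and 5 higher, beside 1078 and 1504 of 12447 genes in all. ITGB2 lost its call whenever a library other than shControl replicate 1 was left out.

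The PARP and Deltex relatives of PARP9 and DTX3L held 4 called genes, all lower, of 18 tested, with a median of -0.24. ZC3HAV1, the zinc finger antiviral protein, had normalized counts averaging 2441 ± 178 in shControl and 883 ± 52.3 in shSQLE, a log2 fold change of -1.47 (SE 0.11), and was called in all 6 fits without 1 library. PARP14, an ADP-ribosyltransferase, stood at -0.99 (SE 0.17), TIPARP, a target of the aryl hydrocarbon receptor, at -0.99 (SE 0.19), and PARP12, an antiviral family member, at -0.60 (SE 0.11). These 3 kept their call in 1 of the 6 fits without 1 library, the one without shControl replicate 1. Without that library 8 of the 18 were called lower, with PARP10, PARP8, TNKS and TNKS2 added, beside 2300 of 12570 genes in all. PARP10, at -1.26 (SE 0.32) with all 6 libraries, was also called by DESeq2, with the replicate block and with GC content and length offsets. Promoter windows of PARP14 and PARP12 held a match to the interferon-stimulated response element, and those of ZC3HAV1 and TIPARP did not. List genes that were not called held matches too, among them TRIM5, TRIM14, TRIM26, TRIM69, PSMB8, PSMB10, PSME1 and PSME2. Others that were not called, such as STAT2 and TRIM25, held none in their windows.

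In the remaining lists, apart from the cell type markers given below, no gene was called with all 6 libraries in the main fit. Of 8 other interferon-regulated TRIM genes tested, 3 reached an unadjusted p under 0.05 and DESeq2 called 0, with TRIM26 at -0.39, TRIM25 at -0.35 and TRIM56 at -0.34. Without shControl replicate 1, 4 of these 8 were called lower (those 3 and TRIM5), beside 2300 of 12570 genes in all. Of 9 interferon-inducible ubiquitin and proteasome genes, 1 reached it and DESeq2 called 0, with FBXO6 at 0.88, RNF213 at -0.34 and PSMB10 at -0.55. The 3 other HERC genes tested held 0 at the unadjusted p and 0 by DESeq2, with HERC4 at -0.23, HERC1 at 0.16 and HERC2 at -0.10. Without shControl replicate 1, HERC4 was called lower at -0.41, as was RNF213 of the preceding list at -0.42. Of 20 other ubiquitin-like modifiers and activating enzymes, 3 reached the unadjusted p and DESeq2 called 0, with SUMO3 and SUMO2 both at 0.27. Without shControl replicate 1, however, 10 of these 20 were called higher and 2 lower, beside 1964 higher and 2300 lower of 12570 genes in all. GC content and length offsets gave calls in these lists too, beside 1078 lower and 1504 higher of 12447 genes in all. In that fit 4 of the 9 ubiquitin and proteasome genes (PSME1, PSME2, PSMB8 and PSMB9) and 2 of the 8 TRIM genes were lower. Of the 20 modifiers and enzymes, 2 were lower and 4 higher.

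Interferon signalling genes, 16 tested, had a median of -0.33 and 15 negative values, but 0 calls. STAT2, part of the complex that binds the response element, was at -0.60 (SE 0.13) and IRF1 at -0.94 (SE 0.22), and 6 genes reached the unadjusted p. JAK2 was at -0.72. DESeq2 called IRF1 and STAT2 lower, beside 568 of 12450 genes in all. Without shControl replicate 1 edgeR called 7 of the 16 lower, beside 2300 of 12570 genes in all. With GC content and length offsets it called 6 of the 16 lower, beside 1078 of 12447 genes in all. IRF1 was also called with library size only and with the replicate block, beside 368 and 362 genes called lower. No interferon ligand passed the filter. IFNL1, a type III interferon, had raw counts of 13, 10 and 9 in shControl and 0, 0 and 0 in shSQLE, at least 3.66-fold lower against a floor of 3 counts per library. With no filter its edgeR adjusted p was 0.0209. IFNB1 had raw counts of 6, 4 and 2 in shControl and 0, 0 and 1 in shSQLE, with an edgeR adjusted p of 0.255 in that fit. Such limits cover counting error only.

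**Figure D5:**
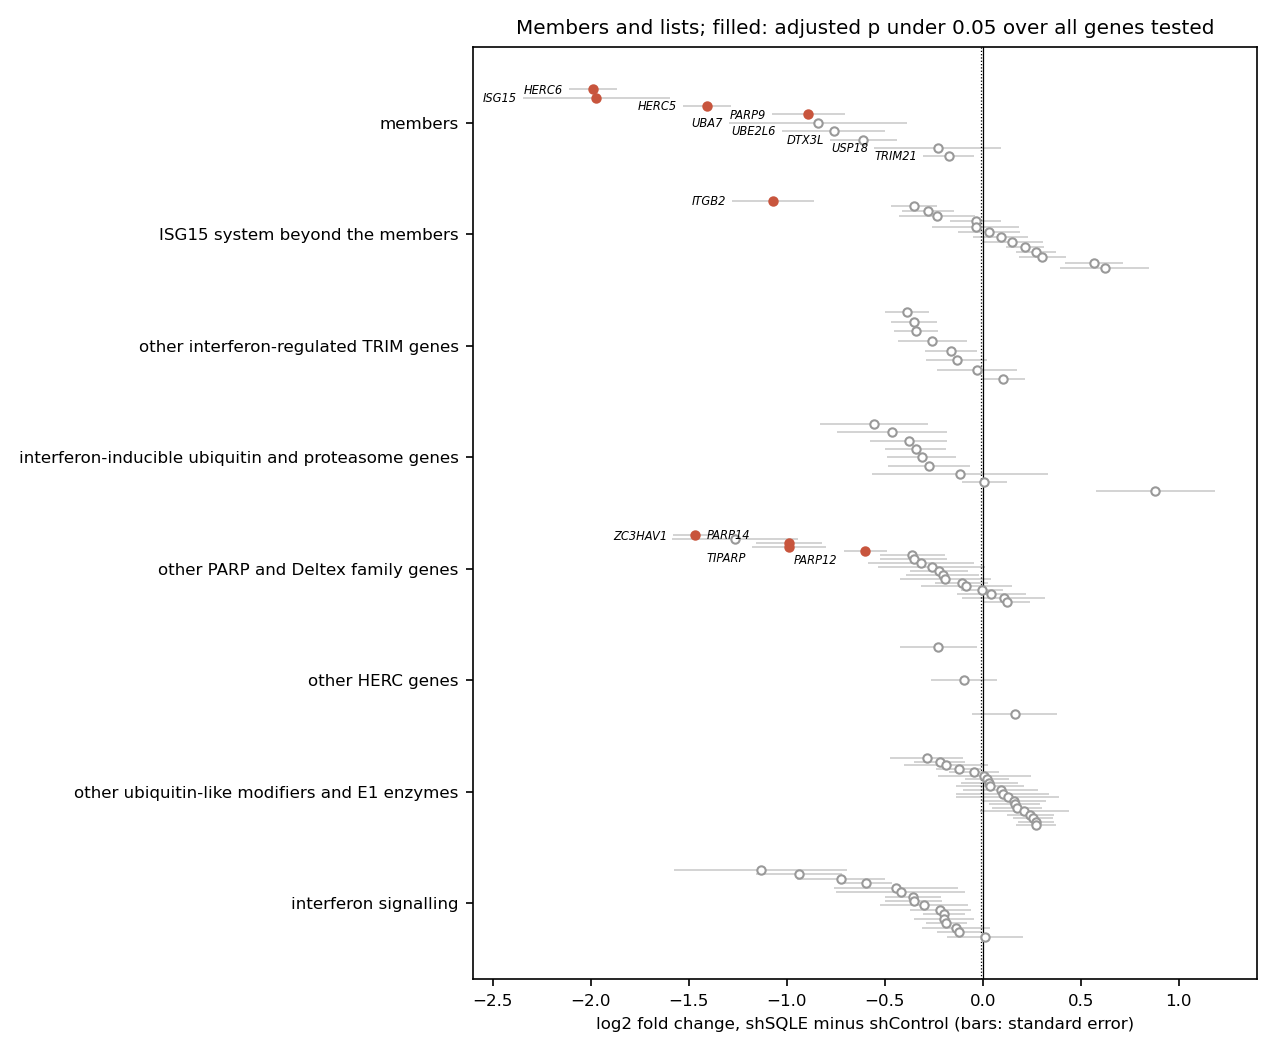
Log2 fold change of shSQLE against shControl with its standard error for the members and 7 lists of related genes, filled where the adjusted p was under 0.05 over all genes tested (dotted line: median of all genes). The calls sit among the members and the PARP and Deltex relatives, plus ITGB2.

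Markers of other cell types were low in both groups, and markers of the osteoblast lineage were summed beside them. Summed CPM over the 8 osteoblast lineage genes ranged from 30.7 to 36.2 in shControl and from 25.7 to 30.3 in shSQLE, with COL1A1 called lower at -0.65, a call kept in 1 of the 6 fits without 1 library, the one without shControl replicate 1. Over the 8 blood cell genes, of which 2 exceeded 3 counts, the sum ranged from 5.77 to 8.08 in shControl and from 3.27 to 4.50 in shSQLE, most of it ITGAX. Neither of these ranges overlapped between the groups. Over the 7 epithelial and endothelial genes, of which 2 exceeded 3 counts, it ranged from 4.90 to 5.17 in shControl and from 4.50 to 5.99 in shSQLE. That sum joins PECAM1, at -1.67, and EPCAM, at 0.40, whose groups did not overlap in opposite directions and which were not called. With shControl replicate 1 left out, RUNX2 (-0.41), ITGAX (-0.79) and PECAM1 (-1.79) were called lower too. The part of these cell type markers in the members' differences was not tested.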

How the data were processed

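Poly(A) RNA of U2OS cells was sequenced in 3 shSQLE and 3 shControl libraries. Per the labels and the submitters' processing notes, which name fastp 0.20.0, STAR 2.7.9a, featureCounts 2.0 and hg38, the authors deposited raw counts per gene, without normalization. The strand setting and annotation release are not given in the sources used here. Identifiers were matched to symbols for 19905 of 19937 genes, and 3942 genes had no count.

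Counts were fitted with edgeR 4.0.16 (R 4.3.3) by its quasi-likelihood test, after filterByExpr and TMM normalization, with no covariate and with Benjamini-Hochberg adjustment over all 12450 genes tested at 0.05. The common dispersion was 0.0267. The study names DESeq2; version 1.42.0 was run as an alternative, beside other scalings and filters, a replicate block, leaving out each library, a threshold of 0.01, and offsets for GC content and transcript length, which were added after seeing the data. Normalized counts were scaled to the mean of the TMM-adjusted library sizes, and log2 CPM used a prior count of 2. The fit was also run on simulated counts, which did not carry the length trend of shControl replicate 1, and nothing is read from that run here. Transcript lengths and positions are those of GENCODE on hg38. With totals of 12212378 to 14393292 counts, a gene at 3 or fewer counts was taken as at the floor.

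The members and lists were chosen with earlier results of these data known. Genes named are the members, SQLE, every list gene past the adjusted p and otherwise up to 3 per list with the smallest p, and the 5 genes most correlated with ISG15. A list gene named by this rule is not reported here. USP41, IFNB1, IFNL1, ITGAL, single markers, list genes named for their promoter windows and list genes called only under an alternative were named after their values were seen. Same-numbered libraries of the groups share only a number. The planned ratio of TRIM22 to TRIM21 is not given, since TRIM22 was at the floor, and protein sequences were not used here.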

Additional observations from a re-analysis of the deposited data

How the results depend on the processing

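Of the members' log2 fold changes, the sign turned in 1 case, USP18 without shControl replicate 2 (0.10, range without 1 library -0.48 to 0.10). Members called lower numbered 2 at an adjusted p of 0.01, beside 124 of 12450 genes in all. Without 1 library they numbered 2 to 5, beside 101 to 2300 genes called lower. The members called were 2 without any single shSQLE library or without shControl replicate 2. They were 5 without shControl replicate 1, beside 2300 of 12570 genes in all. The median log2 fold change of the members tested ranged from -1.02 to -0.72 without 1 library, the lowest being that without shControl replicate 1. With the replicate block, 4 members (HERC6, HERC5, ISG15 and PARP9), 362 genes lower and 34 higher were called. Same-numbered libraries correlated at 0.138, -0.433 and 0.543 in their deviations, so that not every library matched its own number best. DESeq2 called 568 genes lower and 162 higher, with 8 list genes lower and 1 higher. GC content and length offsets called 1078 lower and 1504 higher, with 20 list genes lower and 9 higher, and 6 members, with DTX3L and UBE2L6 added. At an adjusted p of 0.01, 124 genes were lower. Without 1 library, genes called lower ranged from 101 to 2300 and higher from 4 to 1964, and list genes lower from 1 to 26 and higher from 0 to 14. In each of these ranges the highest value was that without shControl replicate 1. The cause was not tested. PARP9 lost its call with library size only (-0.93) and with at least 10 counts in every library (-0.89). TRIM22, at 0 to 2 counts, was too low for a comparison at this depth, and the low counts of UBA7 and USP18 widen their standard errors (0.46 and 0.32).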
